A study of Mus musculus with 4 samples.

Results

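The genes described here are 44 mouse genes of germ cell identity, of meiotic chromosomes and recombination, and of the germline PIWI-interacting RNA (piRNA) pathway, chosen as a list of symbols out of the 28250 genes for which a value was deposited. All 44 symbols were found. They were measured by RNA-seq of poly(A)-selected RNA from TBV2 mouse embryonic stem cells (ESCs), which were kept undifferentiated on a feeder layer with LIF and on gelatin. In the solvent group (replicates 1 and 2) the cells received solvent for 24 h, and in the MS-275 group (replicates 1 and 2) they received 5 µM MS-275, an inhibitor of class I histone deacetylases, for 24 h. The sources used here give no genotype or transgene that separates the groups. The authors used the line as wild type or with an EGFP transgene and do not say which was sequenced. No difference in culture between the groups is described, so RNA from feeder cells could be present in all 4 libraries. The sources used here do not say whether the 2 libraries of a group came from separate cultures, so a p-value measures only the spread between these libraries, which may be technical.

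Germ cells begin as primordial germ cells, which are set apart by the transcriptional regulators Prdm1 and Prdm14 and kept alive by Nanos3. They later enter meiosis after Stra8 is induced, pair their chromosomes along an axis of cohesin and synaptonemal complex proteins, and recombine at breaks made by Spo11. The piRNA pathway, in which PIWI proteins load small RNAs inside perinuclear granules called nuage, silences transposons in the same cells. Many of these genes have CpG-rich promoters that somatic cells and ESCs hold silent through DNA methylation and through repressor complexes that contain E2F6, MGA and MAX, and class I histone deacetylases are among the enzymes of silent chromatin.

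The deposited value is a normalized signal per gene made by the authors with Genomatix. It is not a read count, and its formula is not given in the sources used here. Values of a library summed to between 2490 and 4359, and 71.3% to 76.9% of the genes lay under 0.1. The deposited alignments, each of 35 bases, numbered 9785619 to 23467935 per library, and 53.2% and 54.4% of those in solvent 1 and MS-275 1 repeated a position already seen, against 0% in solvent 2 and MS-275 2. Counting each position once left 5608253 to 7346036 distinct positions on exons per library, which served as a second readout of the same libraries. When values and positions per kb were correlated across 14947 genes on log2 scales, as a description over genes of single libraries, Pearson's r was 0.851 to 0.924 for files deposited under the same library and 0.898 to 0.948 when replicates 1 and 2 of a condition were crossed. The values of each library had the higher r with the crossed alignments, but the alignments of solvent 1 and MS-275 1 had the higher r with their own values (0.924 against 0.9 and 0.904 against 0.898). Whether a replicate number names the same library in both readouts was not settled. The groups do not depend on it. The pairs do not either if both conditions are exchanged alike, but they would if only 1 condition were exchanged. Replicate 1 of both conditions is called old in the authors' column headers, and solvent 1 with MS-275 1 and solvent 2 with MS-275 2 were treated as pairs.

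In solvent, most of these genes were already detected. At least 0.001, the lowest value the authors kept in their shorter tables, was reached by 40 of the 44 genes in both solvent libraries, and 19 of the 44 had a solvent mean of at least 0.1. Of all 28250 genes, 18963 reached 0.001 in solvent 1 and 18194 in solvent 2, counted for each library alone. In these libraries 72.2% and 76.9% of all genes lay under 0.1. Levels of different genes were compared per length, as distinct positions per kb of exon. On this scale the median over 16948 genes was 66.9 in solvent 1 and 60.8 in solvent 2. Sohlh2, a bHLH factor of spermatogonia and young oocytes, held 374 and 380 positions per kb. Rnf17, a Tudor domain protein of male germ cells, held 294 and 379, and Dazl, an RNA-binding protein that controls translation in germ cells, held 228 and 318. All of these lay above the 75th percentile over genes, which was 162 and 151. At the other end, Nobox, an oocyte homeobox factor, held 1.05 and 0 positions per kb, Spo11 held 0 and 1.27, Tdrd6 held 1.13 and 0.425, and Nanos2, a factor of male germ cell fate, held 0.695 and 0.

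**Figure D1:**
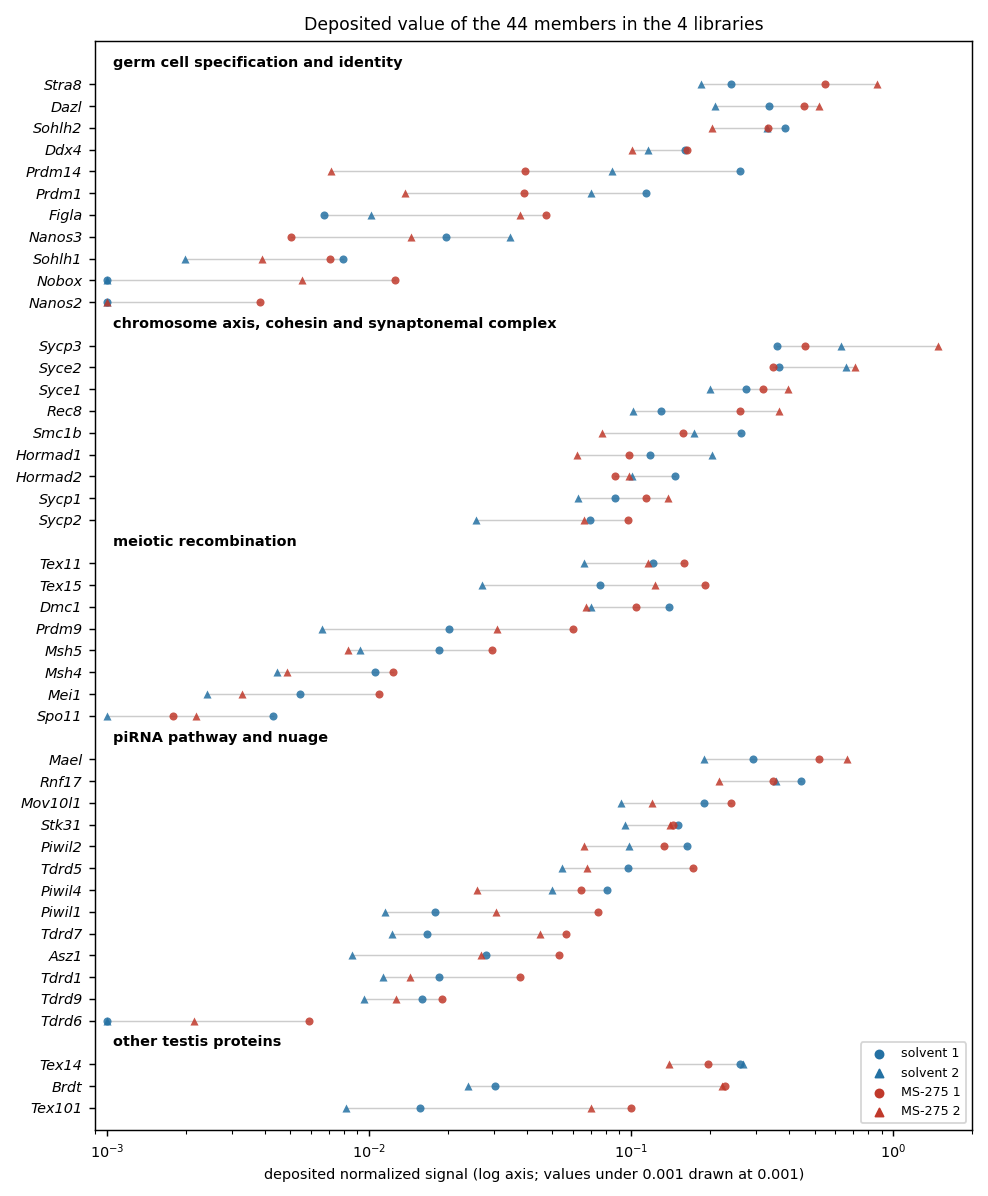
Deposited normalized signal (log axis) of each of the 44 genes, grouped by role and ordered by mean, in solvent 1 and 2 (blue) and MS-275 1 and 2 (red); circles are replicate 1, triangles replicate 2, the grey line spans the 4 values, and values under 0.001 are drawn at 0.001. For Brdt both MS-275 points lie near 0.22 and both solvent points at or under 0.0302, while for Prdm14 both MS-275 points lie at or under 0.0392.

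Both directions were seen among the 44 genes. With the replicate pair as a block in limma on log2(value + 0.005), 16 of the 43 genes tested were higher with MS-275 (37.2%, against 21.0% of the 20336 genes tested) and 6 were lower (14.0%, against 6.46%) at an adjusted p under 0.05. Below, "rose" and "fell" are used of these 22 genes unless another readout is named. The test required a value of 0.001 in 2 libraries, which Nobox and Tdrd6 reached only with MS-275. They could enter it only by being higher there, so their 2 calls are not support for a rise. Brdt, Tex101, Figla, Stra8, Tex15, Tdrd7, Prdm9 and Piwil1 were among those that rose. Prdm14, Prdm1 and Nanos3, which act in primordial germ cells, were among those that fell. Without the block, the fit chosen first, limma called 0 of the 43 higher (against 0.00492% of genes, which is 1 gene) and 0 lower (against 0.0%). At an unadjusted p under 0.05 that fit held 10 higher (23.3%, against 14.6%) and 2 lower (4.65%, against 2.77%). The intervals of the values given below are from the fit with the block. Without it the log2 fold changes were the same, but the intervals were wider. They excluded 0 for these 10 and 2 genes. For the others of the 22 they included 0, as for Dazl (-0.12 to 1.87), Sycp2 (-0.46 to 2.12) and Asz1 (-0.56 to 2.59). The same held for Prdm9 (-0.05 to 3.04) and Nanos3 (-2.60 to 0.28).

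The distinct positions gave 11 of 42 genes higher (26.2%, against 12.4% of 16994 genes) and 5 lower (11.9%, against 7.68%) in limma-voom without the block. With the block they gave 18 higher (42.9%, against 24.0%) and 11 lower (26.2%, against 20.2%). All 16 genes that rose in the values and all 6 that fell passed in the same direction over distinct positions with the block, and 11 of the 16 and 4 of the 6 passed there without it. Nobox and Tdrd6 reached the required 10 positions only with MS-275, so that they passed here is not support either. No gene was higher in one readout and lower in the other. These are 2 readouts of the same libraries and not independent evidence.

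The direction of the whole table bears on these counts. The median log2 fold change of the 43 genes was 0.39, with 30 positive and 13 negative, beside a median of 0.20 over all genes tested, and median-ratio scaling moved the median over all genes to 0.03. With the block and median-ratio scaling, 12 of the 43 were higher (27.9%, against 16.5% of 20283 genes) and 9 lower (20.9%, against 11.4%). Among the 37 members with a mean of at least 0.01, 13 were higher with the block (against 18.7% of 14740 genes) and 5 lower (against 7.4%). Over distinct positions the median of the members was 0.37 and that of all genes -0.01. All fold changes below are of the values as deposited. In bulk RNA, a lower share of cells expressing a gene and less RNA per expressing cell cannot be told apart.

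The ratios within each pair are given as a description, without a test. At least 2-fold higher in both pairs, with values under 0.001 set to 0.001, were 10 of the 44 genes (22.7%, against 11.5% of 28250 genes): Figla, Nobox, Stra8, Prdm9, Tex15, Piwil1, Tdrd6, Tdrd7, Tex101 and Brdt. At least 2-fold lower in both pairs were 3 (6.82%, against 2.04%), which were Prdm1, Prdm14 and Nanos3. Both MS-275 values lay above both solvent values in 15 of the 43 genes tested (34.9%, against 32.3% of the 20336) and below both in 8 (18.6%, against 12.0%), so the count of genes above both was near the background.

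**Figure D2:**
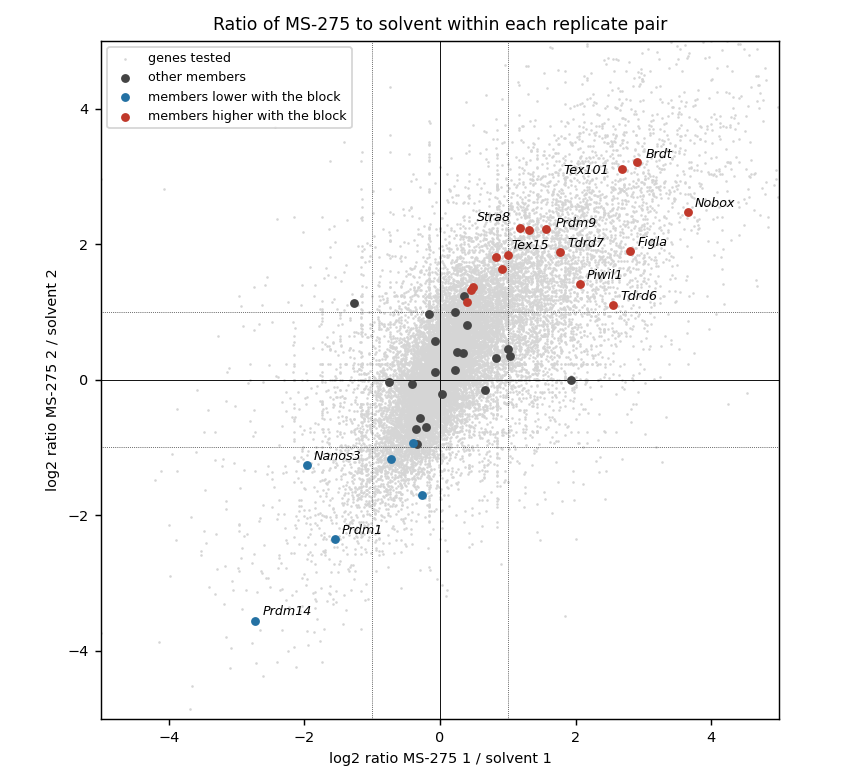
Log2 ratio of MS-275 to solvent in pair 1 (x axis) and pair 2 (y axis) for the 44 genes (red, higher with the block; blue, lower; dark grey, neither) and for the genes tested (light grey; genes beyond 5 on either axis lie outside the panel); dotted lines mark 2-fold. The 10 named genes at the upper right are at least 2-fold higher in both pairs, and Prdm1, Prdm14 and Nanos3 at the lower left at least 2-fold lower.

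The promoters of the 4 genes with the largest change in either direction that had a single window in the RefSeq promoter table are shown because CpG density is one feature on which germline promoters are known to be silenced. Each is the first 200 bases, 5′ to 3′ on the gene's strand, of a window that opens 250 bases before the RefSeq start, on GRCm38.p6, with every CpG in capitals. Brdt (chr5:107330944-107331143, + strand), Tex101 (chr7:24672101-24672300, - strand) and Figla (chr6:86016941-86017140, + strand) rose, and Prdm1 (chr10:44458799-44458998, - strand) fell.
Brdt: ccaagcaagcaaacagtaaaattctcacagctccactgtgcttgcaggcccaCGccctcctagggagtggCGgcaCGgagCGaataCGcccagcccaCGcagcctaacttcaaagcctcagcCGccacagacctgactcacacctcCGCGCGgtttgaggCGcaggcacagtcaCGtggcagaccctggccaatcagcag
Tex101: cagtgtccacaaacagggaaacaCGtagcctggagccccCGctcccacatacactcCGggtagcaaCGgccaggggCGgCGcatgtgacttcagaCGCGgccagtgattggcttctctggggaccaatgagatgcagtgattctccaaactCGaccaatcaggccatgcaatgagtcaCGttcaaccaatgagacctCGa
Figla: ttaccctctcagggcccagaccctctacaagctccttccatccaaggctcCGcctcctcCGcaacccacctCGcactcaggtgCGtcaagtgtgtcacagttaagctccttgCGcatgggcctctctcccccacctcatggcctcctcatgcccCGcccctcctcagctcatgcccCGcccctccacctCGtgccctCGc
Prdm1: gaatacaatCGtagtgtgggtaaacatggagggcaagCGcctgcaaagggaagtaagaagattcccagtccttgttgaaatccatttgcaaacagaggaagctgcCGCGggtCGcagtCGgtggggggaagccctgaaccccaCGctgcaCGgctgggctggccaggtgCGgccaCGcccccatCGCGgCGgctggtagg
These stretches hold 12, 11, 9 and 13 CpGs in that order. The stretch of Brdt contains the E-box CACGTG, 78 bases before the start, and none of the 4 contains TCCCGC.

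Of the 44 genes, 37 had an entry in the promoter table. Over whole windows of 300 bases (250 before and 50 after the start), the median number of CpGs was 18 for the 37 genes and 8 for all 27025 genes of the table. The letters CACGTG, the E-box bound by MGA and MAX among other factors, stood in a window of 13 of the 37 (35.1%, against 8.09% of all genes). TCCCGC, the core of E2F sites, searched on both strands and able to share an end base with CACGTG, stood in a window of 13 (35.1%, against 22.0%). Both motifs were held by 6 genes (16.2%, against 2.32%): Ddx4, Hormad1, Mael, Syce2, Sycp1 and Sycp3. By direction with the block, CACGTG stood in a window of 4 of 14 genes that rose (28.6%), 1 of 5 that fell (20.0%) and 8 of 18 that did neither (44.4%). The median CpG count was 18 in the genes that rose, 20 in those that fell and 16.5 in the others. These matches describe the windows and are not evidence of binding.

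Among the 11 genes of germ cell specification and identity, 4 of the 10 tested rose (40.0%, against 21.0% of all genes) and 3 fell (30.0%, against 6.46%), and with median-ratio scaling 3 were higher and 4 lower. The 3 that fell were Prdm14, Prdm1 and Nanos3, which act in primordial germ cells. Germ cell genes outside the list were mixed. Of 19 tested, 14 had a positive and 5 a negative log2 fold change. Dppa3 rose (log2 fold change 2.88, adjusted p = 3.73e-05 with the block). Tfap2c and Dnd1 did not pass (0.02 and -0.03). Kit, Lin28a and Sall4 were lower but did not pass either (-0.51, -0.56 and -0.49). Prdm14, a PR domain regulator that ESCs also use for naive pluripotency, had values of 0.260 and 0.0840 in solvent 1 and 2 and of 0.0392 and 0.00713 in MS-275 1 and 2. Both MS-275 values were more than 2-fold under the lower solvent value, and within each group replicate 1 was the higher. With the block the log2 fold change was -2.73 (95% interval -3.29 to -2.17, adjusted p = 4.80e-06), and without it -2.73 with an adjusted p of 0.0991. Its value moved most with the library left out, between -3.66 without MS-275 1 and -1.80 without MS-275 2, and was -1.94 and -3.52 without solvent 1 and 2. Over distinct positions, Prdm14 (chromosome 1, 13103538 to 13117244, mm9) held 332 and 644 in solvent and 30 and 111 with MS-275, and the change was between -3.79 without MS-275 2 and -2.24 without MS-275 1.

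Prdm1, also called Blimp1, represses somatic genes as germ cells form. Its values were 0.114 and 0.0702 in solvent and 0.0389 and 0.0137 with MS-275, and the groups did not overlap (log2 fold change -1.72, interval -2.32 to -1.13, adjusted p = 0.000334 with the block). It was -2.34 without MS-275 1 and -1.11 without MS-275 2. Nanos3, an RNA-binding protein that protects primordial germ cells from apoptosis, had 0.0196 and 0.0344 in solvent and 0.00502 and 0.0144 with MS-275. Its groups did not overlap either, but its values rest on few alignments, 48 and 15 distinct positions in solvent and 13 and 5 with MS-275. The log2 fold change was -1.16 (interval -1.82 to -0.51, adjusted p = 0.0109 with the block). Over distinct positions without the block it did not pass (adjusted p = 0.142), and its change there ranged from -2.56 without solvent 2 to -0.92 without MS-275 2, with -2.53 without MS-275 1 and -1.03 without solvent 1.

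The 4 genes of this role that rose act later in germ cells. Stra8, the retinoic acid-induced protein needed to enter meiosis, had 0.241 and 0.184 in solvent and 0.548 and 0.866 with MS-275. Both MS-275 values were more than 2-fold above the higher solvent value, and the log2 fold change was 1.69 (interval 1.12 to 2.26, adjusted p = 0.000274 with the block). Dazl had 0.334 and 0.209 in solvent and 0.457 and 0.521 with MS-275, a log2 fold change of 0.87 (interval 0.33 to 1.42, adjusted p = 0.0183 with the block). Dazl was thus already present in solvent, and its groups did not overlap.

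Figla and Nobox, 2 transcription factors that switch on oocyte genes, rose from very low levels. Figla had 0.00673 and 0.0101 in solvent and 0.0471 and 0.0375 with MS-275 (log2 fold change 1.82, interval 1.15 to 2.50, adjusted p = 0.000598 with the block). In distinct positions Figla held 14 and 5 in solvent and 39 and 43 with MS-275, and its change there was 2.76 without solvent 1 and 1.47 without solvent 2. Nobox was listed at 0 in solvent 1 and at 0.00068 in solvent 2, and at 0.0126 and 0.00554 with MS-275. It held 2 and 0 distinct positions in solvent and 21 and 27 with MS-275, so its fitted changes, 1.35 in the values and 4.37 over positions (5.46 without solvent 1 and 3.25 without solvent 2), depend on the constant added before the logarithm and are not bounds. Nanos2 lay under the filter, with 0 and 0.0003 in solvent and 0.00382 and 0.00069 with MS-275, and no more than 6 distinct positions in any library.

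The other 3 genes of the role did not pass in the values as deposited. Ddx4, the Vasa RNA helicase, had 0.16 and 0.116 in solvent and 0.164 and 0.1 with MS-275, with an interval of the log2 fold change from -0.55 to 0.39. Sohlh2 had 0.384 and 0.330 in solvent and 0.331 and 0.203 with MS-275 and was lower over distinct positions with the block (log2 fold change -0.47, adjusted p = 0.0084). In the values Sohlh2 passed in 1 of 7 fits with the block, that with median-ratio scaling (adjusted p = 0.0404). Sohlh1, its partner, had a mean of 0.00522 over the 4 libraries and at most 11 distinct positions in any of them.

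The 9 genes of the chromosome axis, cohesin and synaptonemal complex moved in both directions, with 3 that rose (33.3%, against 21.0% of all genes) and 2 that fell (22.2%, against 6.46%). With median-ratio scaling 1 of them was higher and 2 were lower, so the balance of directions depends on the scaling. Rec8, the meiotic kleisin subunit of cohesin, had 0.130 and 0.102 in solvent and 0.260 and 0.366 with MS-275, with every MS-275 value about 2-fold or more above every solvent value. Its log2 fold change was 1.38 (interval 0.87 to 1.89, adjusted p = 0.000588 with the block). Smc1b, the meiotic SMC subunit of the same complex, went the other way, with 0.261 and 0.173 in solvent and 0.158 and 0.0771 with MS-275. Its groups did not overlap, though MS-275 1 lay close to solvent 2, and the log2 fold change was -0.91 (interval -1.39 to -0.44, adjusted p = 0.00661 with the block). In distinct positions Smc1b held 1010 and 1088 in solvent and 445 and 735 with MS-275, and it passed there without the block (adjusted p = 0.0155), as did Rec8 (adjusted p = 0.0232). The 2 cohesin subunits therefore moved apart in both readouts.

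Sycp1, the transverse filament of the synaptonemal complex, had 0.0865 and 0.0624 in solvent and 0.114 and 0.138 with MS-275 (log2 fold change 0.73, interval 0.21 to 1.25, adjusted p = 0.0370 with the block). Sycp2, an axial element protein, had 0.0695 and 0.0256 in solvent and 0.0969 and 0.0657 with MS-275, and its groups overlapped while each pair rose (0.83, interval 0.25 to 1.41, adjusted p = 0.0334 with the block). Sycp2 gave 1.47 without solvent 1 and 0.19 without solvent 2. Both calls were among the least stable: Sycp1 passed in 2 and Sycp2 in 4 of the 7 fits with the block, which differ in scaling, pseudocount, filter or trend. Hormad1, a HORMA domain protein of the unsynapsed axis, had 0.117 and 0.202 in solvent and 0.0976 and 0.0622 with MS-275. It fell by 0.94 on the log2 scale (interval -1.54 to -0.34, adjusted p = 0.0218 with the block) and the groups did not overlap.

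Its paralog Hormad2 did not pass in the values, where it had 0.146 and 0.1 in solvent and 0.0864 and 0.0977 with MS-275. Over distinct positions it held 306 and 335 in solvent and 161 and 187 with MS-275 and was lower also without the block (log2 fold change -0.96, adjusted p = 0.0235). The highest mean value of all 44 genes belonged to Sycp3, the axial element partner of Sycp2, with 0.358 and 0.630 in solvent and 0.458 and 1.48 with MS-275, where replicate 2 was the higher in both groups and the groups overlapped. Its adjusted p was 0.0506 with the block, and it passed in 1 of 7 such fits, that with quantile normalization (adjusted p = 0.00313). Sycp3 lies inside the span of Chpt1 on the opposite strand, and only 604 of its 1264 exon bases belong to no other gene, so that without strand its value is uncertain. Syce2, a central element protein with the second highest mean, had 0.366 and 0.659 in solvent and 0.348 and 0.715 with MS-275, an interval from -0.50 to 0.55. Syce1, of the same central element, had 0.273 and 0.199 in solvent and 0.318 and 0.397 with MS-275 and did not pass (adjusted p = 0.0798 with the block) except with quantile normalization (adjusted p = 0.0261).

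Of the 8 genes of meiotic recombination, 2 rose (25.0%, near the 21.0% of all genes) and none fell (against 6.46%), and the counts with median-ratio scaling were also 2 and 0. Tex15, which works in meiotic break repair and in piRNA-directed DNA methylation, had 0.0762 and 0.0269 in solvent and 0.190 and 0.123 with MS-275. Both MS-275 values exceeded both solvent values, and the log2 fold change was 1.64 (interval 1.10 to 2.18, adjusted p = 0.000228 with the block), 2.31 without solvent 1 and 0.96 without solvent 2. Prdm9, the histone methyltransferase that places recombination hotspots, had 0.0202 and 0.0066 in solvent and 0.0599 and 0.0308 with MS-275, again without overlap (1.49, interval 0.85 to 2.14, adjusted p = 0.00191 with the block). In distinct positions Tex15 held 466 and 556 in solvent and 1275 and 1461 with MS-275, and Prdm9 held 40 and 42 in solvent and 172 and 166 with MS-275. Both passed there without the block, with adjusted p of 0.00563 and 0.00914.

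The other genes of recombination did not pass in the values. Spo11, which makes the breaks, was not tested over distinct positions. It was listed at 0.00428 and 0 in solvent and 0.00178 and 0.00218 with MS-275, on at most 10 distinct positions per library, so that only a large change would show. Dmc1, the meiotic recombinase, had 0.139 and 0.0700 in solvent and 0.104 and 0.0668 with MS-275 (interval -0.73 to 0.27). Mei1, Msh4 and Msh5 had means of 0.0055, 0.00802 and 0.0164 over the 4 libraries and intervals of -0.17 to 0.94, -0.48 to 0.70 and -0.44 to 0.90. Tex11, an X-linked crossover protein, had 0.120 and 0.0662 in solvent and 0.158 and 0.115 with MS-275, and was higher only over distinct positions with the block (log2 fold change 0.46, adjusted p = 0.0179).

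Of the 13 genes of the piRNA pathway and nuage, 5 rose (38.5%, against 21.0% of all genes) and none fell (against 6.46%) in the values as deposited. With median-ratio scaling 4 were higher and 2 lower (Piwil4 and Rnf17), so that none were lower depends on the scaling. Mael, a nuage protein with the fourth highest mean of the 44 genes, had 0.292 and 0.189 in solvent and 0.518 and 0.663 with MS-275, without overlap (log2 fold change 1.30, interval 0.74 to 1.86, adjusted p = 0.00173 with the block). Piwil1 (MIWI), the PIWI protein of late spermatocytes and round spermatids, had 0.0179 and 0.0115 in solvent and 0.0747 and 0.0304 with MS-275 (1.45, interval 0.79 to 2.11, adjusted p = 0.00269 with the block, and 0.87 and 2.04 without MS-275 1 and 2). Both of its MS-275 values lay above both solvent values, and it held 98 and 70 distinct positions in solvent and 181 and 306 with MS-275.

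The 2 other PIWI proteins of the mouse were lower in both pairs. Piwil2 (MILI) had 0.162 and 0.0979 in solvent and 0.133 and 0.0658 with MS-275, and Piwil4 (MIWI2), which enters the nucleus of fetal germ cells, had 0.0808 and 0.0496 in solvent and 0.0642 and 0.0258 with MS-275. Neither passed in the values as deposited (adjusted p = 0.197 and 0.134 with the block), though Piwil4 passed in 2 of 7 such fits, those with median-ratio scaling and quantile normalization (lowest adjusted p = 0.0258). Both were lower over distinct positions with the block (-0.51, adjusted p = 0.00719, and -0.70, adjusted p = 0.00811). The difference between Piwil1 and the other two was not tested.

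Tdrd7, a Tudor domain protein of nuage, had 0.0165 and 0.0122 in solvent and 0.0563 and 0.0447 with MS-275 (1.52, interval 0.89 to 2.16, adjusted p = 0.00142 with the block). Its MS-275 values were over 2-fold above its solvent values in every pairing of libraries. Tdrd6, another member of the Tudor family, was listed at 0.00051 and 0.00054 in solvent and at 0.00587 and 0.00214 with MS-275. It held only 8 and 3 distinct positions in solvent and 20 and 20 with MS-275, and it passed in 3 of 6 fits with the block (0.67, adjusted p = 0.0390). Over positions Tdrd6 changed by 1.81, and by 1.23 without solvent 2. Asz1, a nuage protein anchored at mitochondria, had 0.0280 and 0.0086 in solvent and 0.0528 and 0.0266 with MS-275 (1.01, interval 0.36 to 1.66, adjusted p = 0.0222 with the block). The Asz1 groups overlapped, since MS-275 2 lay under solvent 1, and its change was 1.65 without solvent 1 and 0.37 without solvent 2.

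The remaining members of this role did not pass in the values as deposited. Rnf17 had 0.444 and 0.357 in solvent and 0.347 and 0.216 with MS-275 and was lower over distinct positions with the block (-0.43, adjusted p = 0.00543). In the values Rnf17 passed in 2 of 7 fits with the block, those with median-ratio scaling and quantile normalization (lowest adjusted p = 0.0224). Tdrd5 had 0.0971 and 0.0541 in solvent and 0.172 and 0.0677 with MS-275 and was higher there (0.49, adjusted p = 0.0214). Tdrd1, Tdrd9, the RNA helicase Mov10l1 and the Tudor kinase Stk31 passed in neither readout, with log2 fold changes between 0.24 and 0.56 in the values.

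Of the 3 other testis proteins, 2 had the highest log2 fold changes of the list in the values and 1 was lower. Brdt, the testis-specific member of the BET family, whose bromodomains read acetylated histones, had 0.0302 and 0.0238 in solvent and 0.227 and 0.221 with MS-275. Its replicates lay close together in both groups (0.0270 ± 0.00453 and 0.224 ± 0.00421, mean ± SD, n = 2 each), and the log2 fold change was 2.85 (interval 2.33 to 3.36, adjusted p = 1.72e-06 with the block and 0.0581 without). On chromosome 5 (107760178 to 107816077, mm9) Brdt held 151 and 113 distinct positions in solvent and 767 and 942 with MS-275, and passed there without the block (2.62, adjusted p = 0.0046). Tex101, a membrane-anchored protein of male germ cells, had 0.0156 and 0.00813 in solvent and 0.1 and 0.0702 with MS-275 (2.43, interval 1.82 to 3.05, adjusted p = 2.87e-05 with the block and 0.0829 without). Both MS-275 values of Tex101 were more than 3-fold above both solvent values. Tex14, which keeps the bridges between germ cells open, fell, with 0.260 and 0.266 in solvent and 0.197 and 0.1395 with MS-275 (-0.65, interval -1.13 to -0.17, adjusted p = 0.0432 with the block), and the groups did not overlap. It passed in 4 of the 7 fits with the block and, over distinct positions, without it (-0.94, adjusted p = 0.0398).

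**Figure D3:**
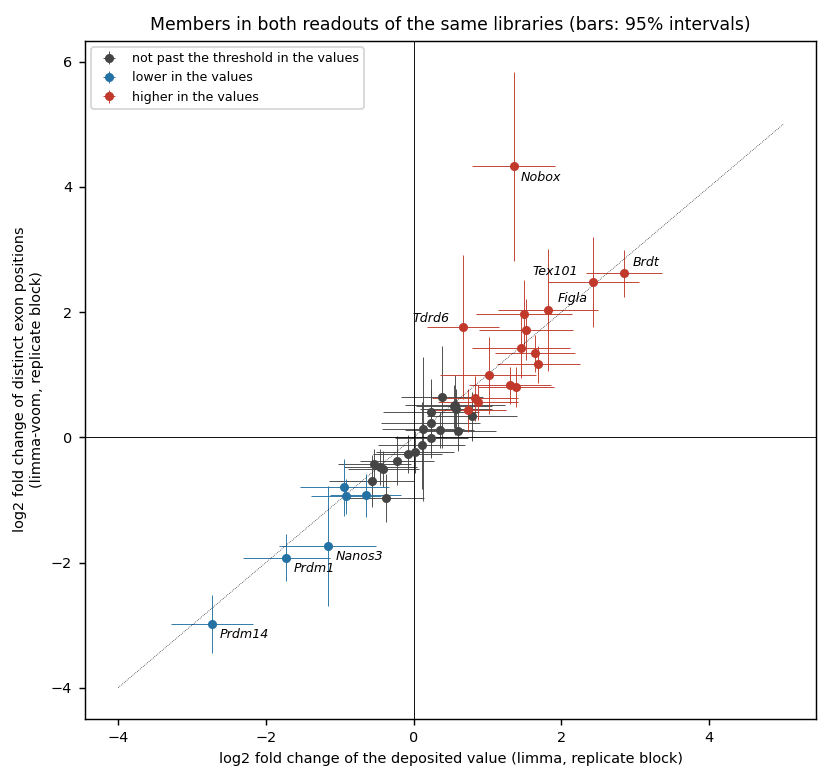
Log2 fold change with MS-275 of the deposited value (x axis, limma with the replicate block) and of distinct exon positions (y axis, limma-voom with the block) for the 42 genes tested in both, with 95% intervals; the dotted line marks equal change. All 16 genes higher in the values (red) lie above 0 on both axes and all 6 lower genes (blue) below 0; Nobox and Tdrd6, which rest on few positions, lie farthest from the line among the genes that rose.

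Positions were denser per kb on exons than on introns for most of these genes. This held in all 4 libraries for 39 of the 42 genes with introns that could be counted, the exceptions being Nobox, Spo11 and Tdrd6. By count, some genes held more on introns. In solvent 1, Hormad2 held 306 distinct positions on exons and 1691 on introns, and Dmc1 held 216 and 1031. How many of all genes are denser on exons was not counted. Brdt had 29.5 and 22.1 positions per kb of exon in solvent and 150 and 184 with MS-275, against 1.22 and 1.02 per kb of intron in solvent and 7.74 and 8.75 with MS-275. On exons and on introns both MS-275 libraries lay above both solvent libraries. At least 1 position fell on 17 of its 19 exons in each solvent library and on all 19 in each MS-275 library. Piwil1 went from 19 and 13 of 22 exons in solvent to 22 and 20 with MS-275, and Nobox from 1 and 0 of 9 to 4 and 7. Stra8 had positions on 9 of 10 exons in each library. In none of the 4 libraries did a position fall on the first annotated exon of Stra8, Tdrd7 or Spo11.

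Per 1000000 distinct positions on exons, intron positions were above both solvent libraries in both MS-275 libraries for 15 of the 16 genes that rose (all but Nobox), and below both for 4 of the 6 that fell (Prdm1, Prdm14, Smc1b and Hormad1). The share of all genes that meet this rule was not counted. These genes were chosen by their change in the same libraries, so the counts are not separate evidence. Stra8 had 32.4 and 12.6 intron positions on this scale in solvent and 154 and 62.6 with MS-275. Of the 6 that fell, Nanos3 had few intron positions (1.16 and 3.80 in solvent and 1.61 and 1.09 with MS-275), and so had Nobox among those that rose (0 and 0.456 in solvent and 0.357 and 0.272 with MS-275), and both overlapped between the groups. Tex14, which fell on exons, had 208 and 158 intron positions in solvent and 310 and 176 with MS-275, which overlap. Stk31 had 64.8 and 64.1 exon positions in solvent and 75.4 and 66.4 with MS-275, while its introns went from 18.5 and 23.5 to 108 and 50.2. Tex14 and Stk31 were singled out after their values were seen, and the difference between exons and introns was not tested.

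**Figure D4:**
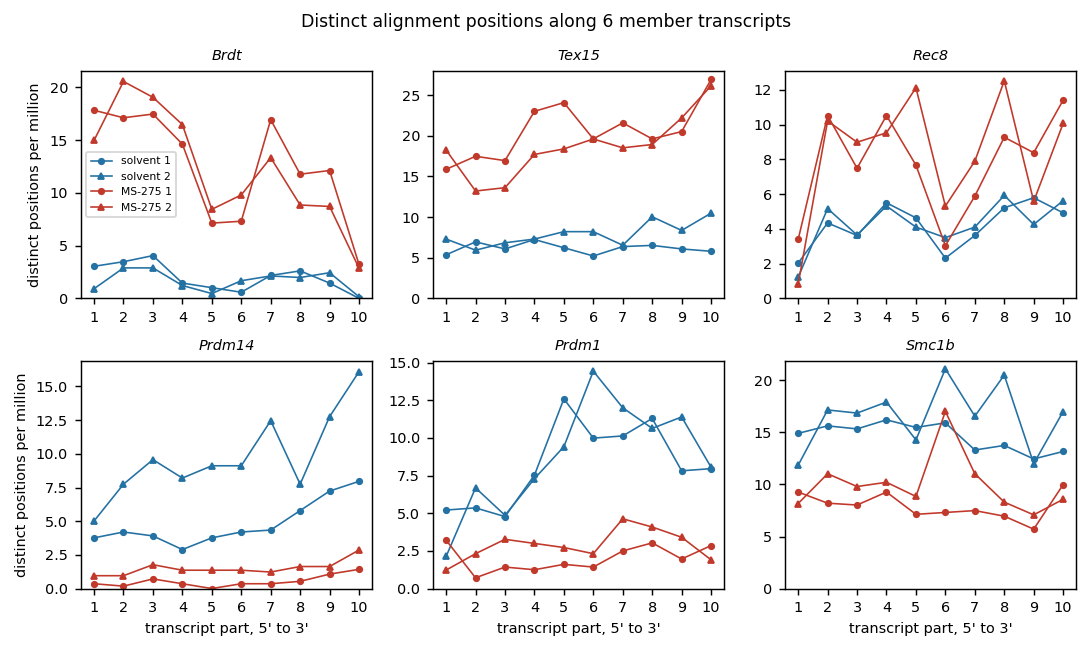
Distinct alignment positions per 1000000 exon positions in each of 10 equal parts of the spliced transcript from the 5′ end, for 3 genes that rose (Brdt, Tex15, Rec8) and 3 that fell (Prdm14, Prdm1, Smc1b), in solvent 1 and 2 (blue) and MS-275 1 and 2 (red). For Brdt, Tex15 and Prdm14 the red and blue lines do not cross, so the difference runs along the whole transcript.

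Related genes outside the list are read against the table as a whole, where 21.0% of genes were higher and 6.46% lower with the block. Among 27 other meiosis genes, 8 rose (29.6%) and 0 fell with the block, led by Meig1, which works in spermatid formation, with 0 and 0.00161 in solvent and 0.0277 and 0.0388 with MS-275. The central element gene Syce3, listed under its older symbol 1700007E06Rik, came next, with 0.0661 and 0.0485 in solvent and 0.224 and 0.539 with MS-275. Among 13 other genes of the piRNA pathway or the Tudor family, 6 rose (46.2%) and 2 fell (15.4%). Gtsf1, which helps PIWI proteins cut their targets, had 0.0606 and 0.0337 in solvent and 0.200 and 0.186 with MS-275, and Spocd1, which acts in piRNA-directed methylation, had 0.00163 and 0.00115 in solvent and 0.0282 and 0.00969 with MS-275. The piRNA trimmer Pnldc1 fell from 0.184 and 0.131 to 0.0974 and 0.0423. Tdrd3, listed as a Tudor family gene and not as a known piRNA factor, fell from 0.0760 and 0.0413 to 0.0439 and 0.0135.

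Among 19 other germ cell genes, 7 rose (36.8%) and 0 fell, led by Dppa3 (Stella), a protein of primordial germ cells and oocytes, with 0.0162 and 0.0234 in solvent and 0.0731 and 0.413 with MS-275. The testis tubulin Tuba3a, which shares sequence with near-identical copies and is uncertain for that reason, had 0.132 and 0.0606 in solvent and 0.310 and 0.263 with MS-275. With median-ratio scaling the 3 lists gave 5 higher and 3 lower, 4 higher and 2 lower, and 6 higher and 3 lower. Over distinct positions with the block, 4 of 19 other meiosis genes were higher and 4 lower. For the piRNA list these were 4 and 2 of 12, and for the germ cell list 8 and 4 of 18. Of all genes, 24.0% were higher and 20.2% lower in that fit, so that none fell in 2 of these lists depends on the readout. Of 21 genes that silence the germline in ESCs, 4 rose (19.0%, near the 21.0% of all genes) and 0 fell, and with median-ratio scaling 2 rose and 4 fell. Over distinct positions with the block 4 were higher and 7 lower, so the direction of the list depends on the scaling and the readout. The de novo DNA methyltransferase Dnmt3a had 0.328 and 0.379 in solvent and 0.612 and 1.22 with MS-275, and its cofactor Dnmt3l had 0.438 and 0.367 in solvent and 0.616 and 1.12 with MS-275.

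Markers of other cell types and states moved as well. Of 10 ESC markers, all were detected in every library and all had a negative log2 fold change. With the block 3 fell (30.0%, against 6.46% of all genes), which were Utf1, Esrrb and Pou5f1. With median-ratio scaling 5 were lower. The pluripotency factor Esrrb had 0.858 and 1.32 in solvent and 0.603 and 0.289 with MS-275, and Utf1 had 0.425 and 0.657 in solvent and 0.299 and 0.120 with MS-275. All 5 tested markers of 2-cell-like cells, a rare state of ESC cultures, rose (100%, against 21.0% of all genes). Their summed value was 0.0755 and 0.0702 in solvent and 0.392 and 0.613 with MS-275. Zscan4d had 0.0416 and 0.0394 in solvent and 0.178 and 0.359 with MS-275, and Zfp352 had 0.0112 and 0.00413 in solvent and 0.0961 and 0.0398 with MS-275. Of 12 feeder fibroblast markers, 4 rose (33.3%, against 21.0% of all genes) and 0 fell (against 6.46%), and none was at 0 in any library. With median-ratio scaling 3 were higher and 1 lower, and over distinct positions with the block 4 were higher and 2 lower. The log2 fold change was negative for Fn1, Col3a1, Lox and Tagln and positive for the others. The summed value of the list was 1.66 and 2.97 in solvent and 1.83 and 2.56 with MS-275. Most of that sum was Fn1 and Vim, which did not pass, while the collagen genes Col1a1 (0.0146 and 0.0101 in solvent, 0.0681 and 0.110 with MS-275) and Col1a2 (0.0810 and 0.0883 in solvent, 0.153 and 0.216 with MS-275) changed most of the 4. Of 6 tested markers of Sertoli and Leydig cells, somatic cells of the testis, 1 rose and 1 fell (16.7% each, against 21.0% and 6.46%). Sox9 rose, with 0.00158 and 0.00363 in solvent and 0.00591 and 0.0152 with MS-275. Inha fell, with 0.0154 and 0.00553 in solvent and 0.00376 and 0.00273 with MS-275. The 10 markers listed summed to 0.124 and 0.104 in solvent and 0.154 and 0.0891 with MS-275. In each library 1 to 3 of the 10 were at 0. The part of these cells and states in the changes of the germline genes was not tested.

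**Figure D5:**
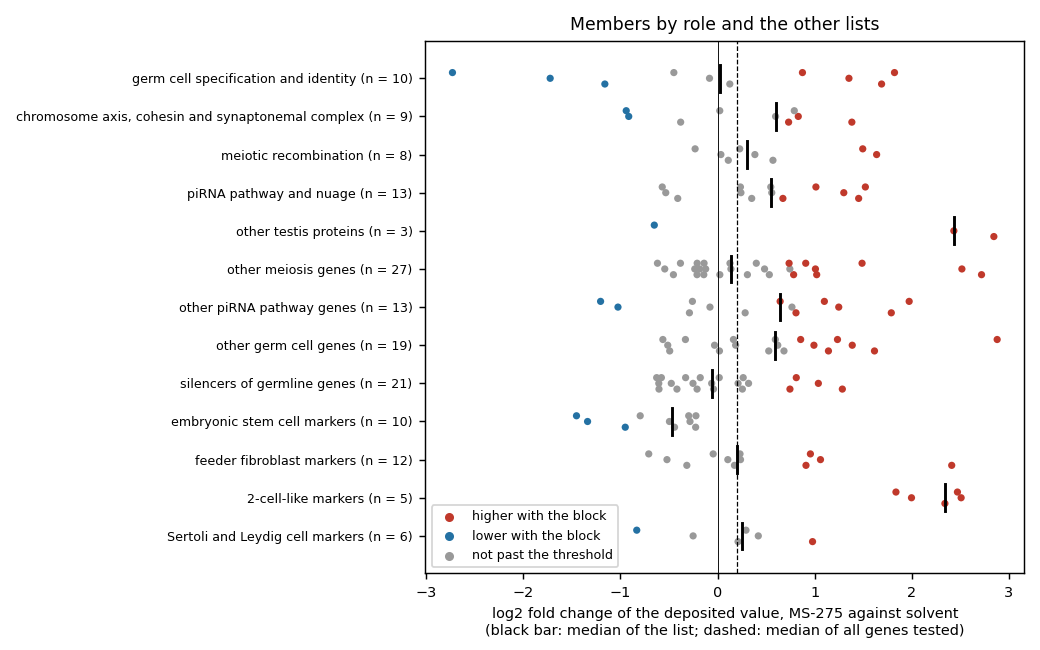
Log2 fold change of the deposited value for the 43 members tested, by role, and for the genes of 8 other lists (red, higher with the block; blue, lower; grey, not past the threshold); black bars are list medians and the dashed line the median of all genes tested, 0.20. The germ cell identity role spreads from -2.73 to 1.82, while all 5 tested 2-cell-like markers lie to the right of 1.8.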

How the data were processed

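For 2 solvent and 2 MS-275 libraries the authors deposited a normalized expression signal per gene, made with Genomatix after mapping to mm9. Aligner, versions and formula are not given in the sources used here. The deposited alignments carry a score column, which was not used, and the tables of ratios between libraries were not used either. Groups follow the labels. The labelled control is solvent, and which vehicle it was could not be settled.

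The fit took the 20336 genes whose signal reached 0.001 in 2 or more libraries, in R 4.3.3 with limma 3.58.1 (lmFit, eBayes with a trend) on log2(value + 0.005), adjusted over all genes by Benjamini-Hochberg and called under 0.05. The first fit had no block. Pairs by replicate number come from the authors' column headers. Deviations from the group means correlated at 0.764 between same-numbered libraries over 20336 genes, and at 0.517 over 16994 genes in distinct positions. The blocked fit is therefore given beside the first fit. The intervals of the values, and most of their p-values for single genes, are from the blocked fit. With a block, 4 libraries leave few residual degrees of freedom per gene. The intervals and p-values of that fit therefore rest largely on the variance that limma pools over genes. Distinct alignment positions (chromosome, start and strand) were counted, without strand, where the midpoint lay in exons of exactly 1 GENCODE M1 gene on mm9. The 16994 genes reaching 10 such positions in 2 or more libraries were fitted with limma-voom after scaling by trimmed means of M values, with median-ratio size factors as an alternative. Tables were handled with Python 3.11.15, numpy 2.4.6 and pandas 2.3.3, and figures with matplotlib 3.10.9. Promoter windows came from a RefSeq table on GRCm38.p6 and were matched by symbol. Steps were tested on simulated data.

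The members and all lists were chosen with earlier results of these data known. Members past the threshold in a fit, and the 5 with the highest mean, are named with every value. Of each other list, up to 2 genes past the threshold in each direction, those that changed most, are named. Of the 123 entries of the other lists, 107 matched by symbol, 11 by Entrez identifier and 5 were not listed. Precision is limited by 2 libraries per group, and the depth behind a single signal value cannot be read from it.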

Additional observations from a re-analysis of the deposited data

How the results depend on the processing

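Without the block, limma on the values called 0 members in each direction in 6 of 7 variants of filter, pseudocount, scaling or trend, and 2 higher and 0 lower where a gene's mean had to reach 0.01. The replicate block was the choice that changed most. With it the higher and lower calls were 16 and 6 as deposited, 12 and 9 with median-ratio scaling, 14 and 8 with quantile normalization, 16 and 5 with a pseudocount of 0.001 and 13 and 6 with one of 0.02. In 2 alternatives chosen after seeing the data, they were 13 and 5 with a mean of at least 0.01, and 14 and 4 without a trend. Over distinct positions, 11 and 5 became 18 and 11 with the block, 0 and 0 with all alignments and no block, and, in alternatives chosen after seeing the data, 18 and 11 with the block and median-ratio size factors and 16 and 11 with the block and all alignments. A minimum of 3-fold in both pairs left 5 higher and 1 lower. The cause of these differences was not tested, beyond the smaller set of genes under a stricter filter.

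With 1 library left out, the higher calls ranged from 1 to 2 in the values and from 9 to 10 over positions, the lower calls from 0 to 1 and from 4 to 7. The ratio rule gave 13 to 23 higher and 3 to 5 lower. Such fits leave 1 library in a group, which is assumed to vary like the others, and carry the offset between replicates.

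Among the members, 7 that passed in no fit on the values changed sign with scaling or pseudocount, with or without the block. With quantile normalization the log2 fold change was -0.30 for Sohlh1, Msh5 and Tdrd9, -0.22 for Spo11, -0.096 for Mei1 and -0.40 for Msh4. With median-ratio scaling it was -0.21 for Syce2 and -0.022 for Msh4, and with a pseudocount of 0.02 it was -0.0038 for Spo11. With 1 library left out, the log2 fold change in the values took both signs for Sohlh1 (-0.32 to 0.57), Syce2 (-0.49 to 0.54), Spo11 (-0.41 to 0.48), Mei1 (-0.085 to 0.86), Msh4 (-0.29 to 0.51), Msh5 (-0.46 to 0.91), Tdrd9 (-0.024 to 0.50), Ddx4 (-0.42 to 0.26), Dmc1 (-0.70 to 0.24), Mov10l1 (-0.16 to 0.86), Piwil2 (-0.89 to 0.070), Piwil4 (-1.15 to 0.015), Stk31 (-0.084 to 0.57), Sycp3 (-0.052 to 1.63), Tdrd1 (-0.013 to 1.13) and Tdrd5 (-0.095 to 1.19). Over positions it did so for Mov10l1 (-0.25 to 0.55), Msh4 (-0.28 to 0.087), Sohlh1 (-0.16 to 0.19), Stk31 (-0.046 to 0.078) and Syce1 (-0.054 to 0.22). None of the 22 members called with the block in the values as deposited changed sign in any of these fits. Piwil2, Piwil4 and Tdrd5, called with the block over positions, did so in the values. Of the 22, 15 passed in every blocked fit on the values that tested them. The others were Dazl and Hormad1 (6 of 7), Asz1 (5 of 7), Sycp2 and Tex14 (4 of 7), Tdrd6 (3 of 6) and Sycp1 (2 of 7). Of the members not called, Piwil4 and Rnf17 passed in 2 of 7 and Sohlh2, Syce1 and Sycp3 in 1 of 7.

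Values near 0.001 rest on fewer than about 10 distinct positions, so for Nanos2, Spo11, Sohlh1, Nobox and Tdrd6 only large changes were detectable.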
